A study of Sus scrofa with 8 samples.

Results

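The genes described here serve protein folding and its stress responses: chaperones of the endoplasmic reticulum (ER), the machinery that carries proteins into it, transcription factors of the unfolded protein response, and the heat shock and J-domain families of the cytosol and mitochondria. They were chosen by symbol, with earlier results of these data known. The symbols are those of the HSP, DNAJ, PDIA, SEC6, SSR, EDEM, ERO1, CCT and FKBP name families. Single genes such as CALR, CANX, XBP1, ATF4, DDIT3, HYOU1, SDF2L1, CRELD2, MANF, SRP9 and SRP14 were added. This gave 89 of the 6765 genes that the porcine array names with 1 symbol, read by 142 probe sets. P4HB, ATF6, ERN1, EIF2AK3, HERPUD1 and SEL1L also belong to the rule but were not analysed here, since no probe set carries only that symbol. The arrays came from islets of male Duroc/Large White cross pigs of 7 days of age and of 3 days of age, 4 pigs each, with 1 array per pig. In both groups the pancreas was digested with collagenase and the tissue was kept in Ham's F10 medium for 7 days, with glucose, isobutylmethylxanthine and nicotinamide, so the RNA is that of cultured cell clusters and not of fresh islets. The comparison asks how islets differ between these ages.

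A secreted protein enters the ER through a membrane channel and is folded there by chaperones such as HSPA5 (BiP), HSP90B1, CALR and CANX, while disulphide isomerases join its cysteines. Beta cells make large amounts of proinsulin, which needs disulphide bonds, and they are known for a large ER load. When unfolded protein builds up, the unfolded protein response slows translation and turns on chaperone genes, and a separate heat shock response serves the cytosol.

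Each probe set combines several short DNA probes into 1 brightness value, here called the intensity and given in arbitrary units, so levels are compared between arrays for a gene and never between genes. The arrays already had a common scale (medians of 171.6 to 178.5), and precision is limited by having 4 of them per label. Principal component analysis put the labels apart on the first axis, and 7-day-old replicate 3 stood away from the other arrays on the next one. Directions below are those of the array labels. For the probe sets that the study listed as changed, every one tested had the opposite sign under these labels. None of them reads one of the 89 genes, but they include the cell type markers NEUROD1, PCSK2, CPB1, DCN, PECAM1 and CDH5, whose directions under the labels thus oppose the study's. Whether labels or lists are turned round was not settled here.

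Markers of several cell types moved with the labels. Of 15 islet endocrine genes tested, 6 were higher and 0 were lower in 7-day-old arrays, among them NEUROD1, PCSK2 and SCG3, and 9 did not pass. The hormone genes were among the 9, with log2 differences of -0.07 for INS, -0.19 for GCG, 0.08 for SST and 0.19 for PPY (limma, adjusted p = 0.795, 0.491, 0.669 and 0.466). The summed intensity of all 15 endocrine genes tested was 171602 to 210760 in 7-day-old arrays and 147182 to 183275 in 3-day-old arrays. Of 18 fibroblast and stellate cell genes tested, 0 were higher and 10 were lower, among them DCN, COL5A1, FBN1 and PDGFRB, with summed intensities of 47524 to 54058 in 7-day-old arrays and 65792 to 85493 in 3-day-old arrays. Of 12 endothelial genes 5 were lower, with sums of 1136 to 1432 in 7-day-old arrays and 2218 to 2746 in 3-day-old arrays. Acinar, duct and leukocyte lists had 1 of 10, 2 of 10 and 1 of 15 genes lower, and 0 higher. Among all genes tested, 5.03% were higher and 7.16% were lower, so the acinar and leukocyte counts lay near the share of all genes. Differences were negative for 5 of 10 acinar genes (median log2 difference -0.02) and 10 of 15 leukocyte genes (median -0.45). Over all 6540 genes tested, 3490 were negative (median -0.02). GHRL in the endocrine list, CELA2A and GP2 in the acinar list, and PTPRC, CD4, CD79B and ITGAM in the leukocyte list lay under the low-signal limit, each array's 20th percentile, in most arrays. In bulk samples, fewer cells of a type and less RNA per cell cannot be told apart, and the part of cell composition in the results that follow was not tested.

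Of the 89 genes, 87 passed the filter on dim probe sets, and these 87 were at or above each array's 20th percentile in all 8 arrays. FKBP6 and HSPB3 were below it in every array and were not tested. With limma and Benjamini-Hochberg adjustment over all probe sets tested, 10 of the 87 genes were higher in 7-day-old arrays and 2 were lower. Among all 6540 genes tested, 5.03% were higher and 7.16% were lower, 12.2% in all. The genes that were higher are SDF2L1, DNAJB9 and HYOU1 of the ER lumen, SEC62 and SEC61B of the translocation channel, HSPA2 and HSPA13 of the HSP70 family, the J-domain genes DNAJC24 and DNAJC6, and the prolyl isomerase gene FKBP4. The genes that were lower are the prolyl isomerase genes FKBP10 and FKBP1B.

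Changes were mostly small. Of the 12 genes, 4 differed by at least 1.5-fold and 2 of these by at least 2-fold, DNAJC24 and FKBP10. Of all genes tested, 7.6% passed with at least 1.5-fold. The median log2 difference over the 87 genes was 0.06, against -0.02 over all genes tested, with 52 positive and 35 negative values. The arrays of the labels did not overlap for 21 of the 87 genes, 14 higher and 7 lower in 7-day-old arrays, and 24.7% of all genes tested behaved so. For 61 of the 87 genes the 95% interval of the difference lay within 1.5-fold in either direction, and for 84 it lay within 2-fold. Over all genes tested these shares were 52.7% and 77.8%. The 87 genes reached the 20th percentile in all 8 arrays, while the filter asked this of only 1 array. The shares were thus not matched for brightness. Without 7-day-old replicate 3, the array that stood apart, 8 genes passed, 7 higher and 1 lower, and the calls of HYOU1, SEC62, SEC61B and FKBP1B were lost.

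**Figure D1:**
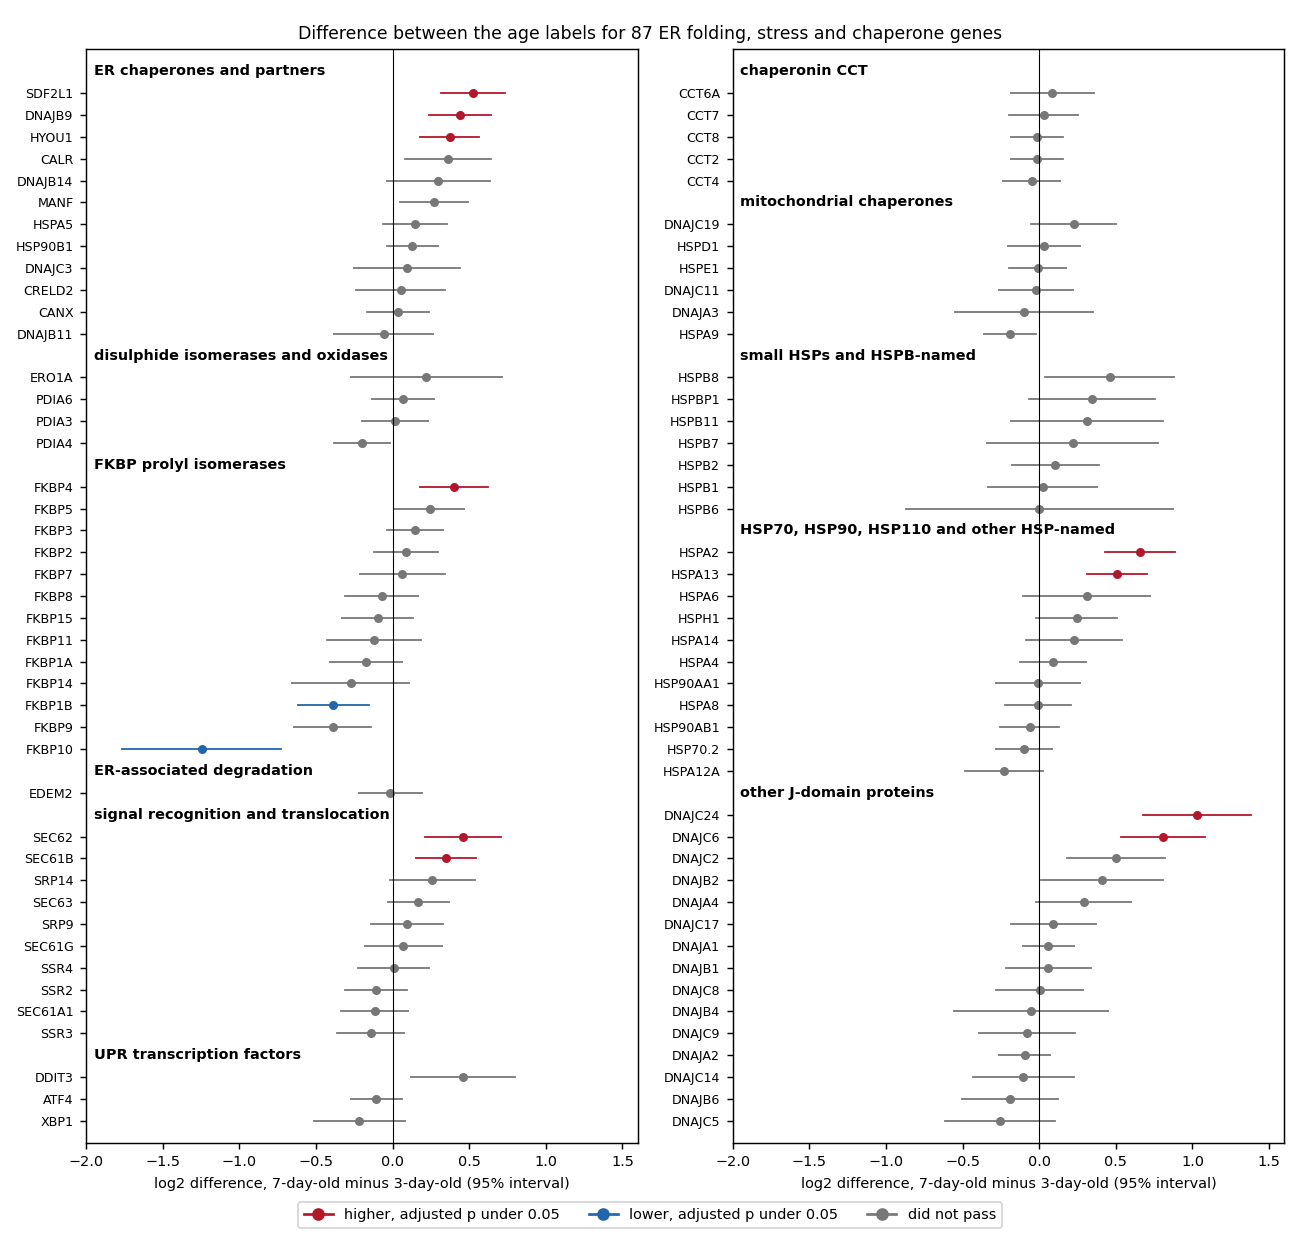
Log2 difference of intensity, 7-day-old minus 3-day-old, for the 87 genes tested, grouped by role on the vertical axis; points are limma estimates from 4 arrays per label and lines are 95% intervals. The 10 red and 2 blue genes passed an adjusted p of 0.05, and most other intervals cross 0.

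Of the 12 ER chaperones and their J-domain partners, 3 were higher and 0 were lower, with a median log2 difference of 0.21. Of the 12 differences 11 were positive, and the exception was DNAJB11, a BiP cochaperone, at -0.06. Among all genes tested, 5.03% were higher, and 3050 of 6540 differences were positive. The 6 FKBP genes of the ER, counted with the prolyl isomerases below, had 4 negative differences and a median of -0.20. SDF2L1, an ER protein that works with BiP and its J-domain partners, had intensities of 637, 625, 545 and 665 in 7-day-old arrays and 419, 412, 443 and 441 in 3-day-old arrays. All 7-day-old arrays lay above all 3-day-old arrays. SDF2L1 was 1.44-fold higher, a log2 difference of 0.52 ± 0.09 (SE, limma, adjusted p = 0.0146), and it stayed past the threshold when any of the 8 arrays was left out.

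DNAJB9, also called ERdj4, is a BiP cochaperone induced in the unfolded protein response. Its intensities were 3710.1, 3159, 3099.7 and 3290.1 in 7-day-old arrays and 2521, 2391, 2352 and 2474 in 3-day-old arrays. The labels did not overlap, and 7-day-old replicate 1 was the highest array. The gene was 1.36-fold higher (log2 difference 0.44 ± 0.09, SE, limma, adjusted p = 0.0217), and the call was lost, with adjusted p up to 0.0634, when replicate 1 or 2 of the 7-day-old arrays or replicate 2 or 3 of the 3-day-old arrays was left out.

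HYOU1, the HSP110-type chaperone of the ER that exchanges BiP's nucleotide, had 1392, 1419, 1368 and 1568 in 7-day-old arrays and 1165, 1142, 1075 and 1056 in 3-day-old arrays. The arrays again did not overlap. The gene was 1.29-fold higher (log2 difference 0.37 ± 0.08, SE, limma, adjusted p = 0.032), but leaving out any 1 array gave adjusted p over the threshold, up to 0.0832.

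The abundant chaperones of the ER did not pass. HSPA5, or BiP, the central HSP70 of the ER, had 16205, 16376, 14144 and 16123 in 7-day-old arrays and 14185, 14038, 13126 and 15419 in 3-day-old arrays. 7-day-old replicate 3 lay among the 3-day-old arrays, so the groups overlapped. The log2 difference was 0.15 with a 95% interval of -0.06 to 0.36 (limma, adjusted p = 0.342). HSP90B1, the HSP90 of the ER, had 7681, 8008, 7394 and 7359 in 7-day-old arrays and 7102, 6804, 7008 and 6914 in 3-day-old arrays. Every 7-day-old array was above every 3-day-old array, yet the difference was 0.13 (limma, adjusted p = 0.296). The other HSP90B1 probe set, described below, was past the threshold with a difference of 0.32.

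The lectin chaperones CALR and CANX, which hold newly made glycoproteins, differed in their estimates. CALR had 588, 529, 479 and 617 in 7-day-old arrays and 388, 446, 396 and 492 in 3-day-old arrays. Only 1 pair of arrays was out of order, with 3-day-old replicate 4 above 7-day-old replicate 3, and the log2 difference of 0.36 did not pass (95% interval 0.08 to 0.64, limma, adjusted p = 0.101). With the stricter filter on dim probe sets the same difference gave an adjusted p of 0.0403. CANX had 6915, 7690.2, 6789 and 7457 in 7-day-old arrays and 6487, 7496, 6843 and 7353 in 3-day-old arrays. These ranges nearly coincided, at a difference of 0.03 (interval -0.17 to 0.24). MANF, a secreted ER stress protein, had a difference of 0.27 (adjusted p = 0.115), and CRELD2, another ER stress-inducible protein, had 0.05.

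None of the 3 unfolded protein response transcription factors passed, and their signs differed. DDIT3 (CHOP), the factor linked to cell death under prolonged stress, had 924, 793, 869.5 and 656 in 7-day-old arrays and 482, 640.1, 599 and 635 in 3-day-old arrays. The groups did not overlap, though 7-day-old replicate 4 lay close to the top 3-day-old array. Its log2 difference of 0.46 gave an adjusted p of 0.0872 in limma, against 0.0294 with an intensity trend and robust variances and 0.0311 with the stricter filter.

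ATF4, the factor translated when eIF2alpha is phosphorylated, had 5793, 5893, 5822 and 5637 in 7-day-old arrays and 6288, 6359.8, 5954 and 6312 in 3-day-old arrays. All 7-day-old arrays were below all 3-day-old arrays, at a difference of only -0.11 (limma, adjusted p = 0.378). XBP1, whose mRNA is spliced by the sensor IRE1, had 12988, 11349, 14002 and 9625 in 7-day-old arrays and 14473, 13496, 13352 and 13950.4 in 3-day-old arrays. The 7-day-old arrays were widely spread and overlapped the narrow 3-day-old range (difference -0.22, interval -0.51 to 0.08, limma, adjusted p = 0.313). A probe set of this kind gives total XBP1 signal and does not separate its spliced form.

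**Figure D2:**
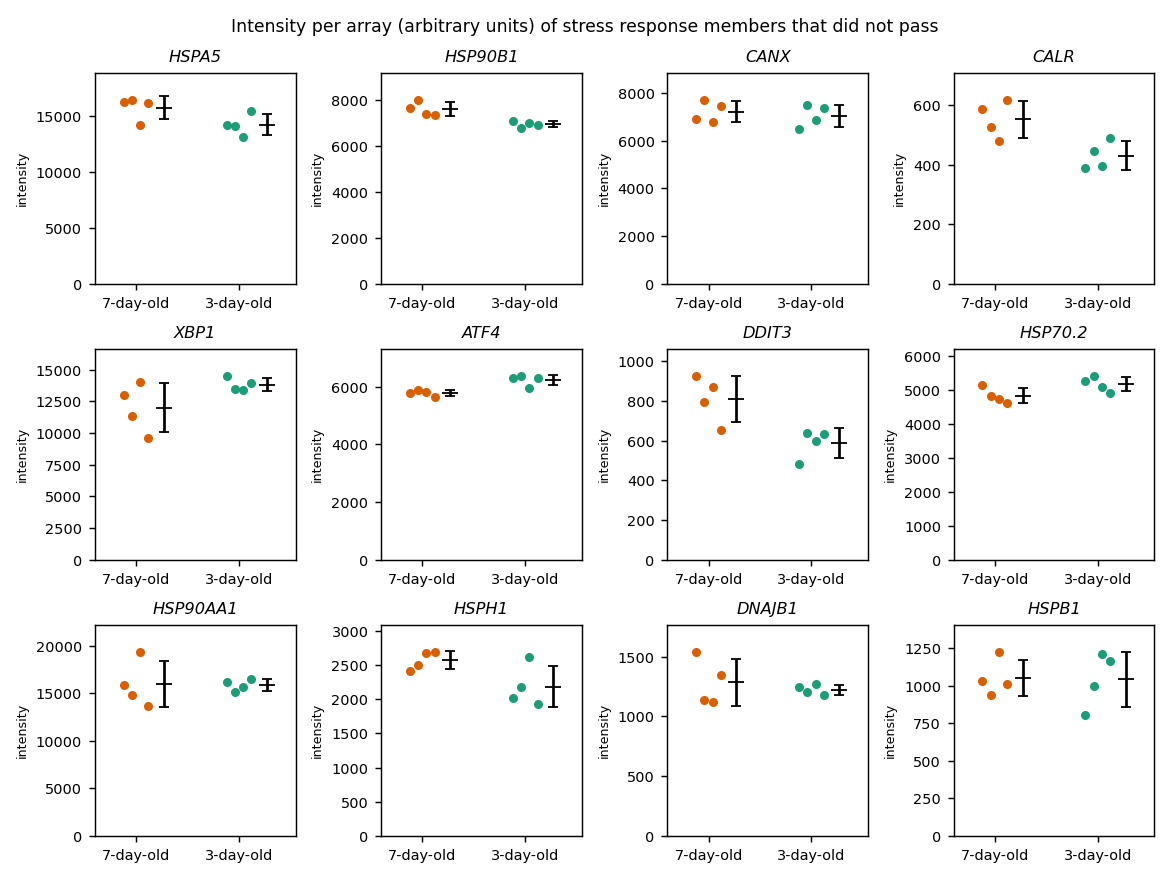
Intensity (arbitrary units, axes from 0) in each array for 12 stress response genes that did not pass, 7-day-old at the left and 3-day-old at the right of each panel; horizontal marks and bars are mean and SD over 4 arrays. HSP90B1, ATF4 and DDIT3 show no overlap between the labels, while the arrays of the other genes overlap. For HSP90B1 another probe set, not shown here, passed.

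Among the genes for entry into the ER, 2 of 10 were higher and 0 lower, with a median log2 difference of 0.08. SEC62, which helps short or post-translationally targeted proteins reach the channel, had 3689, 3860.3, 4199.8 and 3837 in 7-day-old arrays and 3351, 2598, 2837 and 2606 in 3-day-old arrays. The labels were apart, with 3-day-old replicate 1 nearest to the 7-day-old arrays. It was 1.37-fold higher (log2 difference 0.46 ± 0.11, SE, limma, adjusted p = 0.0366), a call that was lost when any array other than 3-day-old replicate 1 was left out, with adjusted p up to 0.0929.

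SEC61B, the beta subunit of the channel, had 6466, 6586, 5884 and 6142 in 7-day-old arrays and 4731, 4721, 5376 and 4861 in 3-day-old arrays. No 3-day-old array reached the 7-day-old range. It was 1.27-fold higher (log2 difference 0.35 ± 0.08, SE, limma, adjusted p = 0.0395), and the call was lost in each fit with 1 array left out, with adjusted p up to 0.105, and without the filter (0.0517). The other channel subunits gave differences of -0.12 for SEC61A1 and 0.07 for SEC61G, and SEC63, which recruits BiP to the channel, gave 0.17. SSR4, a translocon-associated protein, had 10322, 9779.6, 10660.5 and 8614 in 7-day-old arrays and 10107, 9921, 8839.5 and 10254 in 3-day-old arrays, which overlapped at a difference of 0.01 (interval -0.22 to 0.24). Its partners SSR2 and SSR3 and the signal recognition particle proteins SRP9 and SRP14 did not pass either, with differences from -0.14 to 0.26.

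No disulphide isomerase or oxidase gene passed among 4 tested. PDIA6, an isomerase that also acts on the sensors of the stress response, had 8878, 8745, 9220.1 and 9869 in 7-day-old arrays and 8264, 8403, 9614 and 8789 in 3-day-old arrays. The labels overlapped, with a difference of 0.07 (interval -0.13 to 0.27). PDIA3, which works with the lectin chaperones, had 0.01. PDIA4 was read by 2698, 2823, 2606 and 2507 in 7-day-old arrays and 3091, 3083, 3182 and 2863 in 3-day-old arrays. The labels did not overlap, and the difference was -0.20 (limma, adjusted p = 0.151). ERO1A, the oxidase that recharges the isomerases, had 0.22 with an adjusted p of 0.553. EDEM2, which trims mannose from glycoproteins bound for degradation, was the sole gene of its role, with 1123, 1023, 922 and 942 in 7-day-old arrays and 994, 999, 996 and 1049 in 3-day-old arrays. The 3-day-old arrays lay inside the 7-day-old range, and the difference was -0.01 (interval -0.22 to 0.19).

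The FK506-binding prolyl isomerases were the role with calls in both directions, 1 higher and 2 lower of 13 tested. FKBP10, an ER isomerase needed for collagen folding, had 284, 205, 167 and 173 in 7-day-old arrays and 371, 441, 636 and 516 in 3-day-old arrays. All 7-day-old arrays lay below all 3-day-old arrays. On the log2 scale both labels spread alike, with an SD of 0.35 in 7-day-old and 0.33 in 3-day-old arrays. The log2 difference was -1.25 ± 0.22 (SE, 0.421-fold, limma, adjusted p = 0.017), and it stayed past the threshold without any 1 array. The fibroblast and stellate markers, 10 of 18 lower as given above, moved the same way, and their part in the FKBP10 difference was not tested.

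FKBP1B, the isomerase that binds ryanodine receptor calcium channels, had 1873, 1704, 1522 and 1629 in 7-day-old arrays and 2035, 2438, 2164 and 2150.4 in 3-day-old arrays. The groups did not overlap, and 7-day-old replicate 1 was nearest to the 3-day-old range. It was lower at 0.765-fold (log2 difference -0.39 ± 0.10, SE, limma, adjusted p = 0.0493). This call lay at the threshold: it was lost in each fit with 1 array left out (adjusted p up to 0.113), with arrays centred on their median (0.0582) and without the filter (0.0626).

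FKBP4, a cochaperone of HSP90 in steroid receptor complexes, had 621, 611, 542 and 642 in 7-day-old arrays and 473, 467, 407 and 482 in 3-day-old arrays. The labels did not overlap. It was 1.32-fold higher (log2 difference 0.40 ± 0.10, SE, limma, adjusted p = 0.0384), and its call was lost when any array other than 7-day-old replicate 3 was left out, with adjusted p up to 0.0964. FKBP9, an ER isomerase, had no overlap either, with 987 to 1201 in 7-day-old arrays and 1311 to 1665 in 3-day-old arrays. Its difference of -0.39 did not pass in limma (adjusted p = 0.0586), against 0.0149 with an intensity trend and robust variances and 0.0192 with the stricter filter. FKBP3, a nuclear isomerase, had 4561, 4523, 4187 and 4168 in 7-day-old arrays and 4164, 3816, 3879 and 3900.2 in 3-day-old arrays. Its labels touched but did not overlap, the difference of 0.15 did not pass (adjusted p = 0.27), and the other FKBP genes lay between -0.27 and 0.24.

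Of the 11 genes of the HSP70, HSP90 and HSP110 families and other HSP names, 2 were higher and 0 lower. HSPA2, an HSP70 best known from the testis, had 393, 345, 376 and 313 in 7-day-old arrays and 223, 216, 219 and 242 in 3-day-old arrays. The groups were clearly apart and the 3-day-old arrays were tightly grouped. HSPA2 was 1.58-fold higher (log2 difference 0.66 ± 0.10, SE, limma, adjusted p = 0.00972) and kept its call without any 1 array.

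HSPA13, an HSP70-like protein of the microsomes, had 6014, 6385, 5570.0 and 6013 in 7-day-old arrays and 4405, 4313, 3882 and 4305 in 3-day-old arrays. The labels did not overlap. It was 1.42-fold higher (log2 difference 0.50 ± 0.08, SE, limma, adjusted p = 0.0135) in the fit of all arrays, and past the threshold in each fit with 1 array left out.

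The classical heat shock genes did not pass. HSP70.2, the stress-inducible HSP70 of the pig, had 5148, 4841, 4749 and 4608 in 7-day-old arrays and 5280.1, 5408, 5105 and 4929 in 3-day-old arrays. The ranges overlapped at a difference of -0.10 (interval -0.28 to 0.08, limma, adjusted p = 0.455). HSP90AA1, the inducible cytosolic HSP90, had 15905, 14836, 19325 and 13703 in 7-day-old arrays and 16168, 15159.8, 15701 and 16526 in 3-day-old arrays. The highest and the lowest array were both 7-day-old, and the difference was -0.01 (interval -0.28 to 0.27).

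HSPH1, the cytosolic HSP110, had 2419.8, 2509, 2679.8 and 2688 in 7-day-old arrays and 2018, 2178, 2616 and 1937 in 3-day-old arrays. Only 3-day-old replicate 3 reached the 7-day-old range, and the difference of 0.24 did not pass (interval -0.02 to 0.51, limma, adjusted p = 0.21). HSPA8, the constitutive HSP70, had a difference of -0.01. HSPA14, a ribosome-linked HSP70, had 1689, 1441, 1405 and 1181 in 7-day-old arrays and 1233, 1063, 1183 and 1386 in 3-day-old arrays. The labels overlapped, and the difference was 0.23 (adjusted p = 0.321). HSPA12A, a distant relative of HSP70, was dim, with 62.6, 71.1, 60.0 and 75.4 in 7-day-old arrays and 87.8, 73.8, 74.0 and 79.7 in 3-day-old arrays. Only 7-day-old replicate 4 reached the 3-day-old range, and the difference was -0.23 (adjusted p = 0.214).

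No small heat shock protein or HSPB-named gene passed among 7 tested. HSPB8, a partner of BAG3 in chaperone-assisted autophagy, had 1794, 1889, 2009 and 2034 in 7-day-old arrays and 1353, 1039, 1422 and 1936 in 3-day-old arrays. A single 3-day-old array, replicate 4, lay within the 7-day-old range, and the difference of 0.46 did not pass (interval 0.04 to 0.88, limma, adjusted p = 0.147). HSPB1, or HSP27, had 1036, 937, 1224 and 1012 in 7-day-old arrays and 806, 996, 1211 and 1166 in 3-day-old arrays, a difference of 0.02 (interval -0.34 to 0.38). Both labels spread widely over the same range.

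The other J-domain proteins, cochaperones that start the HSP70 cycle, had 2 of 15 genes higher and 0 lower. DNAJC24, which serves diphthamide synthesis on elongation factor 2, had 4762, 4555, 4186 and 3983 in 7-day-old arrays and 2465, 1749, 1869 and 2585 in 3-day-old arrays. The groups lay far apart. DNAJC24 was 2.04-fold higher (log2 difference 1.03 ± 0.15, SE, limma, adjusted p = 0.00937).

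DNAJC6, or auxilin, which with HSC70 strips clathrin from vesicles and is known from neurons, had 1781, 1758, 1583 and 2076 in 7-day-old arrays and 948, 1026, 957 and 1183 in 3-day-old arrays. All 7-day-old arrays lay above all 3-day-old arrays. DNAJC6 was 1.75-fold higher (log2 difference 0.81 ± 0.12, SE, limma, adjusted p = 0.00923). Both J-domain genes kept their call without any 1 array. Of the 15 endocrine markers 6 were higher in the same arrays and 9 did not pass, INS and GCG among them, and their part in these differences was not tested.

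DNAJC2, a ribosome-associated J-domain protein, was near the threshold, with 852, 970.4, 1015 and 797 in 7-day-old arrays and 800.3, 574, 594 and 611 in 3-day-old arrays. 3-day-old replicate 1 was just above the lowest 7-day-old array, and the difference of 0.50 gave an adjusted p of 0.0598 in limma, against 0.0155 with an intensity trend and robust variances and 0.0183 with the stricter filter. Its other probe set was higher by 0.57 (limma, adjusted p = 0.0394), a call lost in 7 of the 8 fits with 1 array left out, without the filter (0.0502) and with the methods' t-test (0.0527). DNAJA1, a general cytosolic cochaperone, had 4984, 4829, 4711 and 4722 in 7-day-old arrays and 4622, 4436, 4718 and 4683 in 3-day-old arrays. The labels met at their edges, with a difference of 0.06 (interval -0.11 to 0.23). DNAJB1, the heat-inducible HSP40, had 1536, 1136, 1122 and 1345 in 7-day-old arrays and 1247, 1200.0, 1269 and 1176 in 3-day-old arrays. The 3-day-old arrays lay within the 7-day-old range, and the difference was 0.06 (interval -0.22 to 0.34).

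**Figure D3:**
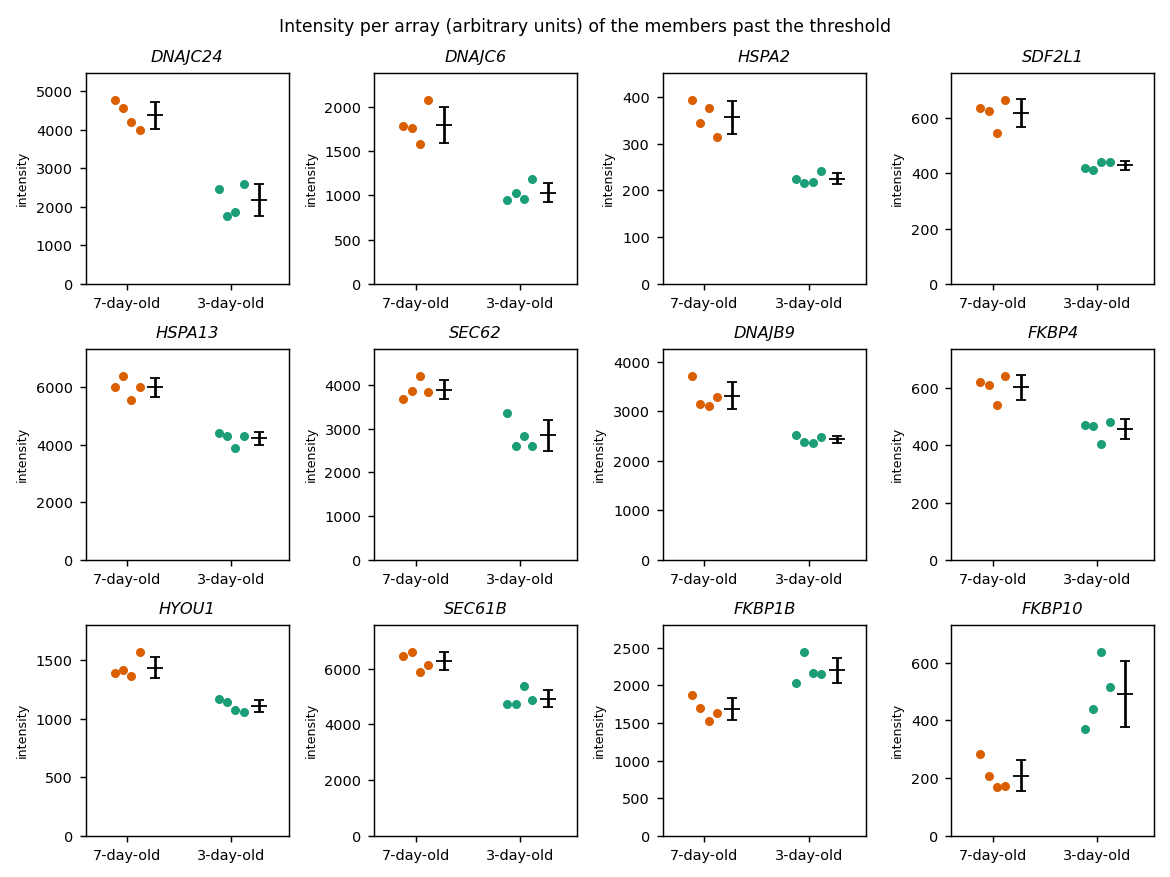
Intensity (arbitrary units, axes from 0) in each array for the 12 genes that passed an adjusted p of 0.05 in limma, 7-day-old at the left and 3-day-old at the right of each panel; horizontal marks and bars are mean and SD over 4 arrays. The labels do not overlap in any of the 12 panels, and 10 genes are higher and 2 lower in 7-day-old arrays.

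Chaperones of the cytosolic chaperonin and of mitochondria showed 0 calls. The 5 chaperonin subunits, which fold actin and tubulin, had differences between -0.05 and 0.09. CCT2 had 6893, 6465, 6636 and 6413 in 7-day-old arrays and 6995, 6632, 6565 and 6518 in 3-day-old arrays, which overlapped at -0.02 with an interval of -0.19 to 0.15. Among the 6 mitochondrial genes, HSPD1 and HSPE1, partners in the matrix chaperonin, had differences of 0.03 and -0.01. HSPE1 had 10929, 11652, 10474 and 11040.3 in 7-day-old arrays and 11704, 10641, 10681 and 11426 in 3-day-old arrays, with full overlap (interval -0.19 to 0.17). HSPA9, the mitochondrial HSP70, had no overlap between the labels at a difference of -0.19, which did not pass (limma, adjusted p = 0.143).

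Other probe sets of a gene gave a partial check, since 30 of the 87 genes were read by more than 1 tested probe set. The signs were the same for 21 genes and mixed for 9. DNAJB9 was positive in 3 of 3 probe sets, of which 2 passed. HSP90B1 was positive in both, and the probe set that does not stand for the gene passed with a difference of 0.32 (limma, adjusted p = 0.0471) where the other gave 0.13. HSPA13 and FKBP1B kept their sign in both probe sets, with 1 past the threshold each.

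The probe sets disagreed for several genes that did not pass. DNAJB6, a J-domain protein that keeps aggregation-prone proteins soluble, had 1 of 4 probe sets lower (difference -0.62, limma, adjusted p = 0.0285), while the 3 others lay between -0.33 and 0.13. PDIA4 gave -0.20 at the probe set that stands for it and 0.41 and 0.45 at the others, none past the threshold. SEC61A1 ran from -0.12 to 1.29, and the value of 1.29 came from a probe set that was above the low-signal limit in only 3 arrays. Other probe sets reached 0.47 for SEC61G, 0.29 for HSPA8 and -0.45 for CCT4. The probe sets that stand for these genes gave 0.07, -0.01 and -0.05, and none passed.

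**Figure D4:**
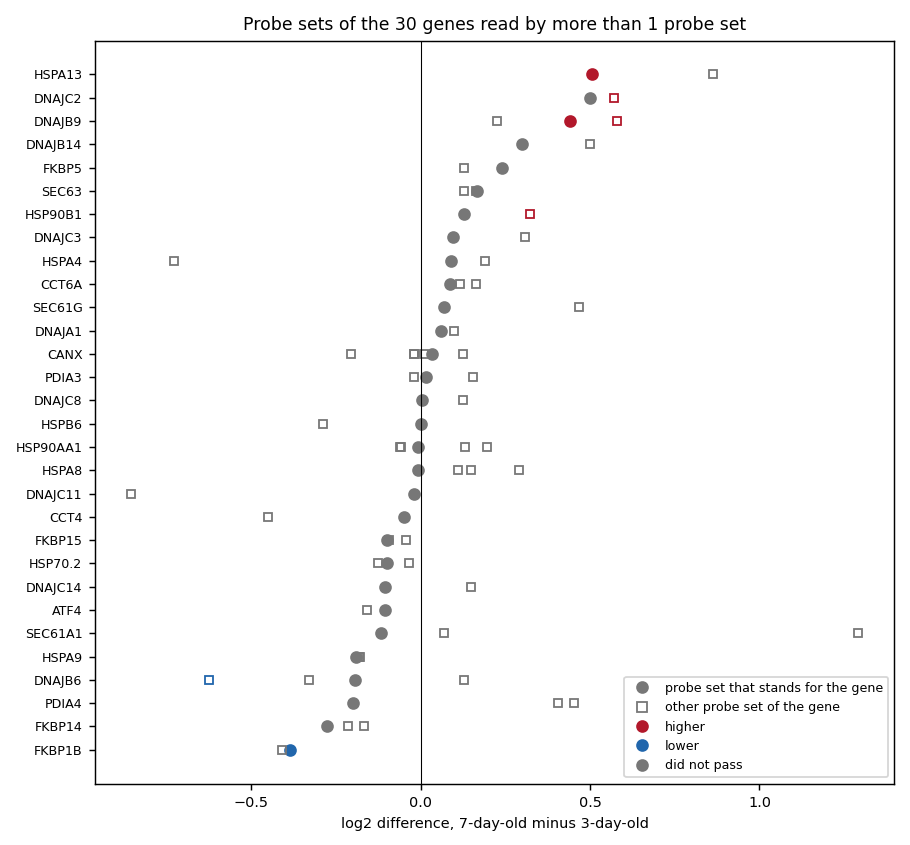
Log2 difference, 7-day-old minus 3-day-old, of every tested probe set of the 30 genes read by more than 1; filled circles stand for the gene, open squares are its other probe sets, and red and blue mark an adjusted p under 0.05. For 21 genes all probe sets lie on the same side of 0, and for 9 they do not.

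Of 93 further folding and stress genes outside the name rule, 6 were higher and 8 lower in 7-day-old arrays, 15.1% in all against 12.2% of all genes tested, with a median log2 difference of -0.0028. Among 29 genes of ER targeting, translocation and glycosylation, TUSC3, a subunit of oligosaccharyltransferase, was higher by 0.50 ± 0.10 and SPCS3 of signal peptidase by 0.38 ± 0.07 on the log2 scale (SE, limma, adjusted p = 0.0217 and 0.0219). TRAM2, a translocation protein linked to collagen synthesis, had a difference of -0.79 ± 0.11 (adjusted p = 0.00853). Of 13 genes of ER folding and oxidation, 3 were higher, the sulfhydryl oxidase gene QSOX1 (0.63 ± 0.14, adjusted p = 0.0325) and the thioredoxin-domain genes TXNDC15 (0.45) and TMX4 (0.37). SERPINH1, or HSP47, the collagen chaperone, was lower (-0.81 ± 0.12, adjusted p = 0.00953). The part of the fibroblast and stellate markers in the TRAM2 and SERPINH1 differences was not tested.

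In ER-associated degradation, 1 of 12 genes passed, DERL1 of the export channel, with a difference of -0.30 ± 0.07 (SE, limma, adjusted p = 0.0426). Of 13 genes of the unfolded protein and integrated stress responses, the transcription factor genes CEBPB (-0.83 ± 0.14, adjusted p = 0.0125) and ATF3 (-0.53 ± 0.12, adjusted p = 0.0328) were lower and 0 were higher. Of 26 heat shock factors and cochaperones, HSF2, a heat shock transcription factor, was higher (0.55 ± 0.10, adjusted p = 0.0173), and HSF1, the main one, had a difference of 0.04 (adjusted p = 0.887). The 3 lower genes belong to the BAG family, named for a domain that in several members binds HSP70, and BAG5, the other BAG gene tested, had -0.17 (adjusted p = 0.313). BAG1 had -0.79 ± 0.09 (adjusted p = 0.00566), BAG3 had -0.67 ± 0.10 (adjusted p = 0.0086), and BAG6 had -0.53 ± 0.09 (adjusted p = 0.0161). BAG1, BAG3 and BAG6 stayed past the threshold when any 1 array was left out, as did TRAM2, SERPINH1 and CEBPB. The other calls were lost in 2 of the 8 fits with 1 array left out for HSF2, 3 for TXNDC15, 4 for TUSC3, 6 for SPCS3 and QSOX1, and 7 for TMX4, DERL1 and ATF3.

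**Figure D5:**
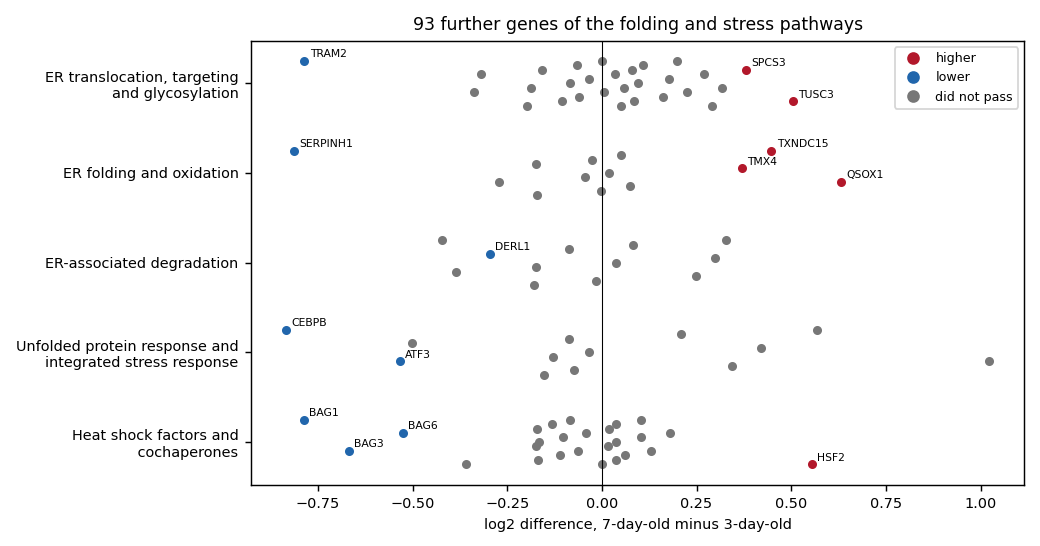
Log2 difference, 7-day-old minus 3-day-old, of 93 further folding and stress genes, in 5 groups on the vertical axis (vertical spread within a group only separates the points); coloured and named points passed an adjusted p of 0.05 in limma. The 6 higher genes are in 3 of the groups, and the 8 lower genes are in all 5.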

How the data were processed

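RNA of cultured islets from 7-day-old and 3-day-old pigs, 4 per age, was measured on the Affymetrix porcine GeneChip, and groups and replicate numbers came from the array labels. The deposited values are linear intensities of 24123 probe sets, already brought to a common scale by the authors: without the top and bottom 2% of values, the mean of every array is 500.1. The sources used here do not name the summarising software. The methods describe a further normalization to each probe set's median, which the deposited intensities do not include, and an additional amplification round for low RNA, without naming the samples.

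Values under 1 were set to 1, log2 was taken and control probe sets were left out. Probe sets below the 20th percentile in all 8 arrays were dropped, which left 21574 of 23999. They were tested with limma (version 3.58.1, R 4.3.3), using lmFit, eBayes and two-sided p-values adjusted by Benjamini-Hochberg at a threshold of 0.05 without covariates, and the scripts were tested on simulated data. Tables and plots were made in Python 3.11.15 with numpy 2.4.6, pandas 2.3.3 and matplotlib 3.10.9. Gene symbols came from the platform annotation, in which 10069 probe sets had 1 symbol, 198 several and 13732 none. For 88 of the 89 genes the gene ID was found in RefSeq, with the same symbol. The probe set with the highest mean log2 stood for its gene. A log2 difference is the difference of mean log2 values, given as 7-day-old minus 3-day-old. A fold change is that difference turned back to the linear scale, 7-day-old over 3-day-old. No sequences or positions are given.

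The genes, their roles and the further lists were chosen with earlier results of these data known. Values per array were given for genes past the threshold, the brightest gene of each role and chosen stress genes, and further for FKBP9, PDIA4, DNAJC2 and genes with disagreeing probe sets, which were picked after their values were seen. Of each further list up to 4 genes past the threshold were named. HSF1, BAG5 and the marker genes were also picked after their values were seen.

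Alternatives were no filter, a stricter filter (50th percentile in at least 4 arrays), the methods' t-test, an intensity trend with robust variances, arrays centred on their median, quantile normalization, an offset of 16, omission of each array in turn, a block for the replicate number, and the mean of all probe sets of a gene.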

Additional observations from a re-analysis of the deposited data

Results flagged for a closer look

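In 2 of 68 groups of 4 arrays (34 genes, both labels) a single array lay far from the others, and chance gives about 5% of groups such a gap. HSPA5 was 14144 in 7-day-old replicate 3, against 16123 to 16376 in the other 7-day-old arrays. The same array stood apart on the next principal component after the one that separates the labels. EDEM2 was 1049 in 3-day-old replicate 4, against 994 to 999 in the other 3-day-old arrays.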

How the results depend on the processing

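The count of genes past the threshold was 12, and it was 10 to 17 under the other filters, tests, scalings, offset and the mean of all probe sets. Without single arrays it was 6 to 9 (5 to 8 higher, 1 lower), with 6 when replicate 1 or 2 of the 7-day-old arrays or replicate 2 or 3 of the 3-day-old arrays was left out, and 7 when 7-day-old replicate 4 was. DNAJC24, DNAJC6, HSPA2, HSPA13, SDF2L1 and FKBP10 passed in every one of these fits. The 2 lower genes became 1 with centred arrays and with no filter, and 4 with an intensity trend. Over all probe sets 2305 passed, 3491 with the intensity trend and 1008 to 1854 without single arrays. The 14 further pathway genes became 6 to 12 without single arrays. The cause of these shifts was not tested.

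The replicate numbers did not pair the arrays, since residuals of equal numbers correlated at -0.0135 to 0.00487 and no 7-day-old array correlated best with the 3-day-old array of its own number. With the number as a block 0 probe sets, 0 of the 87 genes and 0 further pathway genes passed in limma, while 5264 probe sets, 18 of the 87 genes and 23 pathway genes had an unadjusted p under 0.05.

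Among the genes with values per array in the text, signs turned for 8, all near 0 and past the threshold in none of these fits. HSP90AA1 gave 0.0018 with centred arrays and HSPE1 gave 0.013 with quantile normalization. Without single arrays the log2 differences ran from -0.0043 to 0.065 for CANX, -0.037 to 0.0061 for CCT2, -0.030 to 0.12 for DNAJB1, -0.070 to 0.024 for EDEM2, -0.10 to 0.062 for HSP90AA1, -0.098 to 0.098 for HSPB1, -0.038 to 0.014 for HSPE1 and -0.041 to 0.070 for SSR4. With 4 arrays per label, log2 differences had standard errors of 0.17 at the median over all 21574 probe sets tested. For the genes with values per array, standard errors ran from 0.07 for ATF4 to 0.22 for FKBP10.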
